A study of Mus musculus with 18 samples.

Results

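The 35 genes described here encode proteins that replicate DNA or carry a cell through mitosis. They were taken from a fixed list of symbols, from Mki67 to Uhrf1, and each symbol matched 1 Ensembl identifier among the 47729 in each count table. Of the 35, 14 were classed with the entry into S phase (G1/S) or S phase, among them Mybl2. The other 21, among them Ccna2, were classed with G2 phase and mitosis (G2/M). A gene can act in more than the phase it was classed with. The libraries were made from polyadenylated RNA of epithelial cells sorted by flow cytometry from the mouse ileum, the final stretch of small bowel. There were 18 libraries in 3 groups of 6: females on day 7 of lactation, virgin females and virgin males, the virgin mice being matched to the lactating mice for age. Mice in breeding received the RM3 diet, and mice in maintenance or experiment the RM1 diet. Diet may therefore differ between lactating and virgin mice, and it could then not be told apart from lactation. The sources used here do not give strain, genotype, age in weeks, sorting gates or any pooling of animals. Whether every library came from its own animal is not spelled out in the labels, so the p-values given speak of variation among these samples, some of which may be technical.

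Epithelial cells of the small intestine are born in the crypts, where stem cells and their rapidly dividing progeny replicate and divide, and they stop dividing as they move onto the villus. Replication starts from origins onto which the MCM2-7 helicase is loaded in G1. Cyclin E and then cyclin A drive S phase, and cyclin B with the kinase Cdk1 drives mitosis. Many genes of the first wave are targets of E2F transcription factors, and many of the second wave are targets of the MuvB complex with B-Myb or FoxM1. In RNA from sorted cells the level of such genes therefore depends on how many dividing cells the sample holds and on how much of each RNA such a cell contains. These cannot be told apart in bulk samples.

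Library totals ran from 34577104 to 49039300 counts, and every member passed the filter on low counts, with at least 70 counts in every library. Levels are given in CPM, library-size-normalised counts scaled by TMM factors. Markers of the epithelium were high: the summed level of 7 epithelial markers was 10996 to 18195 CPM, and Epcam, an adhesion protein of epithelial cells, stood at 1504 to 3165 CPM. Markers of cells outside the epithelium that could also divide were low. Those of T cells summed to 0.298 to 5.66 CPM over 8 genes, those of B and plasma cells to 0.331 to 2.43 CPM over 6, and those of fibroblasts and smooth muscle to 0.0495 to 0.614 CPM over 6. In each of these lists the defining marker was at 0 in some libraries (Cd3e, Cd79a and Col1a1). The 5 myeloid markers summed to 5.34 to 44.9 CPM. A pair of libraries stood apart: the level of Gm42418, whose locus overlaps ribosomal RNA sequence, was 31048 CPM for virgin female 2 and 29981 CPM for virgin male 6. Elsewhere it was 1230 to 4477 CPM.

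Levels differed widely between members. Per kilobase of annotated exon, averaged over the 18 libraries, Pcna, the sliding clamp of the replication fork, had the highest level at 38.9 CPM per kilobase. Mki67, the proliferation antigen that coats mitotic chromosomes, followed at 16.2 and Ccnb2, a mitotic cyclin, at 15.5. At the low end stood Ccne1, cyclin E1, at 1.61 CPM per kilobase and Cenpf, a large kinetochore protein, at 1.80. Reads of Pcna and of a near-identical copy could have been counted to either gene. Pcna-ps2 matches the Pcna transcript at 99.2% over 781 bases, and its count was 16.8% to 23.7% of the Pcna count. Likewise Ccnb1-ps and Gm12856 match Ccnb1 at 99.2% and 98.1%, with counts of 3.49% to 11.6% and 3.59% to 8.06% of the Ccnb1 count. Whether the counting used strand is not given in the sources used here, so reads of Ccna2 and its opposite-strand neighbour Exosc9 (510 shared exon bases) could be mixed, as could those of Mcm7 and Ap4m1 (321 bases).

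Within each female group, libraries differed more in these genes than the group means did. The summed level of the 35 members ran from 533 to 1698 CPM among lactating libraries, from 534 to 1642 CPM among virgin females, and from 1132 to 1527 CPM among males. Lactating female 1 and virgin female 1 were the lowest of the 18 libraries for 20 and 14 members, and lactating female 5 for the remaining member, Foxm1. Lactating female 2 was the highest of the 18 for 24 members and virgin female 4 for 6. The mean log2 CPM of the members was 4.45 ± 0.629 for the lactating group, 4.38 ± 0.593 for virgin females and 4.84 ± 0.170 for virgin males (SD, n = 6 each). All 6 male values, 4.62 to 5.08, lay inside the range of either female group, which ran from 3.48 to 5.21 in lactating and from 3.55 to 5.14 in virgin females.

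**Figure D1:**
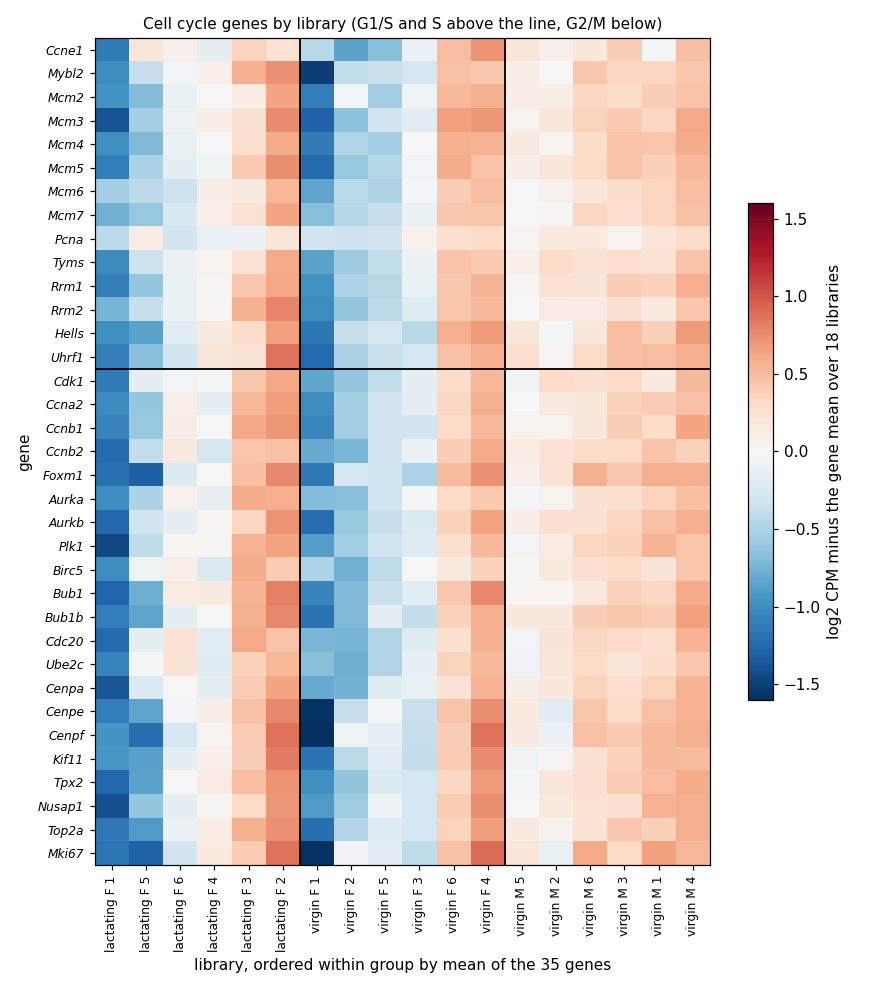
Each cell shows 1 gene (rows, G1/S and S genes above the horizontal line and G2/M genes below it) in 1 library (columns, ordered within each group by the mean of the 35 genes) as log2 CPM minus the gene's mean over the 18 libraries. Columns change colour as blocks: lactating female 1 and virgin female 1 are low and lactating female 2 and virgin female 4 are high across nearly all rows, while the male columns differ less.

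The within-group spread of the members was larger than that of most genes in females and was not in males. The median SD of a member's log2 CPM was 0.65 in lactating and 0.61 in virgin females, against 0.36 and 0.33 over the 15572 genes tested, and 17.5% and 17.8% of the genes tested had an SD above the members' median. In virgin males the members' median SD was 0.19 against 0.20 over all genes tested, and 53.2% of these lay above it. The whole transcriptome was thus less variable in males too, and a difference in spread between the sexes was not tested.

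Among the S-phase members Ccne1 and Mybl2 were the lowest expressed. Ccne1, which activates Cdk2 for entry into S phase, stood at 1.87 to 5.25 CPM in lactating females (median 4.48), 2.27 to 6.71 in virgin females (median 3.41) and 3.99 to 5.70 in virgin males (median 4.62). Mybl2, the transcription factor B-Myb, stood at 4.80 to 16.0 CPM (median 9.75), 3.38 to 13.3 (median 7.76) and 9.67 to 13.0 (median 12.1) in the same order of groups. For both genes the 3 groups overlapped and the male median was the highest.

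The 6 genes of the MCM2-7 helicase, which unwinds DNA at the fork, shared this pattern at different heights. Mcm6 was the highest of them in CPM, with 32.1 to 67.7 in lactating females (median 43.8), 26.1 to 65.7 in virgin females (median 40.4) and 46.6 to 65.8 in virgin males (median 55.2). Mcm2 ran from 13.0 to 39.1 CPM (median 24.2), 11.8 to 37.5 (median 24.4) and 27.1 to 34.5 (median 31.3). Lactating female 2 was highest and lactating female 1 lowest in their group for all 6 helicase genes. The spread between libraries differed within the complex: over the 18 libraries Mcm3 varied 4.42-fold from lowest to highest and Mcm6 2.59-fold.

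Of the clamp and nucleotide supply genes, Pcna moved least. It stood at 68.8 to 105 CPM in lactating females (median 85.8), 73.4 to 115 in virgin females (median 86.0) and 94.6 to 113 in virgin males (median 103), a range of 1.67-fold over all libraries and the narrowest of the 35 members. Tyms, thymidylate synthase, ran from 7.31 to 22.6 CPM (median 14.7), 8.19 to 20.4 (median 12.6) and 15.8 to 20.4 (median 17.7). Rrm2, the regulated subunit of ribonucleotide reductase, ran from 7.93 to 22.9 CPM (median 13.0), 6.60 to 19.1 (median 10.7) and 13.4 to 17.96 (median 14.7). Its partner subunit Rrm1 varied 3.32-fold over the libraries and Rrm2 3.47-fold. Uhrf1, which carries DNA methylation over to the new strand, ran from 11.2 to 44.2 CPM (median 23.5), 10.2 to 36.01 (median 19.4) and 24.7 to 36.1 (median 31.9). Hells, a chromatin remodeller also needed for DNA methylation, varied 3.56-fold.

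Next came the genes that drive entry into mitosis. Cdk1, the mitotic kinase, stood at 8.94 to 29.8 CPM in lactating females (median 19.0), 10.9 to 28.1 in virgin females (median 16.2) and 18.7 to 27.8 in virgin males (median 23.5). Its partner cyclin Ccnb1 stood at 10.1 to 34.3 CPM (median 21.8), 10.2 to 30.1 (median 17.0) and 21.7 to 32.6 (median 24.7). Foxm1, the transcription factor of the G2/M wave, stood at 5.04 to 21.2 CPM (median 11.6), 5.62 to 20.6 (median 10.1) and 13.1 to 18.6 (median 17.6). In each of these 3 genes the lowest male library was above the median of both female groups or close to it, and the highest library was a female one.

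Genes of the mitotic kinases, the spindle checkpoint and exit from mitosis followed. Plk1, polo-like kinase 1, ran from 7.13 to 30.4 CPM in lactating females (median 19.9), 10.5 to 27.8 in virgin females (median 16.1) and 18.7 to 28.2 in virgin males (median 24.8). Birc5, survivin of the chromosomal passenger complex, ran from 9.88 to 29.8 CPM (median 19.9), 11.6 to 25.7 (median 17.5) and 20.1 to 26.9 (median 23.2). Cdc20, which activates the anaphase-promoting complex, ran from 10.3 to 37.4 CPM (median 25.4), 14.7 to 36.4 (median 19.6) and 23.7 to 36.2 (median 29.8). Bub1b, the checkpoint protein BubR1, ran from 9.47 to 34.96 CPM (median 19.5), 9.03 to 30.4 (median 17.1) and 23.0 to 32.4 (median 27.0). Virgin female 2 rather than virgin female 1 was the lowest virgin female for Birc5, Cdc20, Ube2c, Pcna and Ccne1, a set named after its values were seen.

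Genes of the kinetochore, the spindle and the mitotic chromosome included those with the widest ranges over the 18 libraries, Cenpf, Mki67 and Cenpe (5.06-fold), the last encoding a kinetochore motor. Cenpf stood at 10.98 to 46.4 CPM in lactating females (median 23.6), 8.17 to 46.4 in virgin females (median 23.8) and 23.8 to 37.6 in virgin males (median 34.4), a 5.68-fold range over all libraries. Kif11, the motor that pushes spindle poles apart, stood at 16.1 to 54.9 CPM (median 30.2), 13.6 to 52.0 (median 25.5) and 29.6 to 44.0 (median 38.1). Top2a, the topoisomerase that untangles sister chromatids, stood at 52.6 to 194 CPM (median 118), 50.6 to 185 (median 98.9) and 122 to 175 (median 144). Mki67 stood at 60.04 to 268 CPM (median 141), 49.3 to 273 (median 136) and 135 to 232 (median 198), a 5.55-fold range over all libraries. For Top2a and Mki67 the female groups spanned the male range at both ends.

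**Figure D2:**
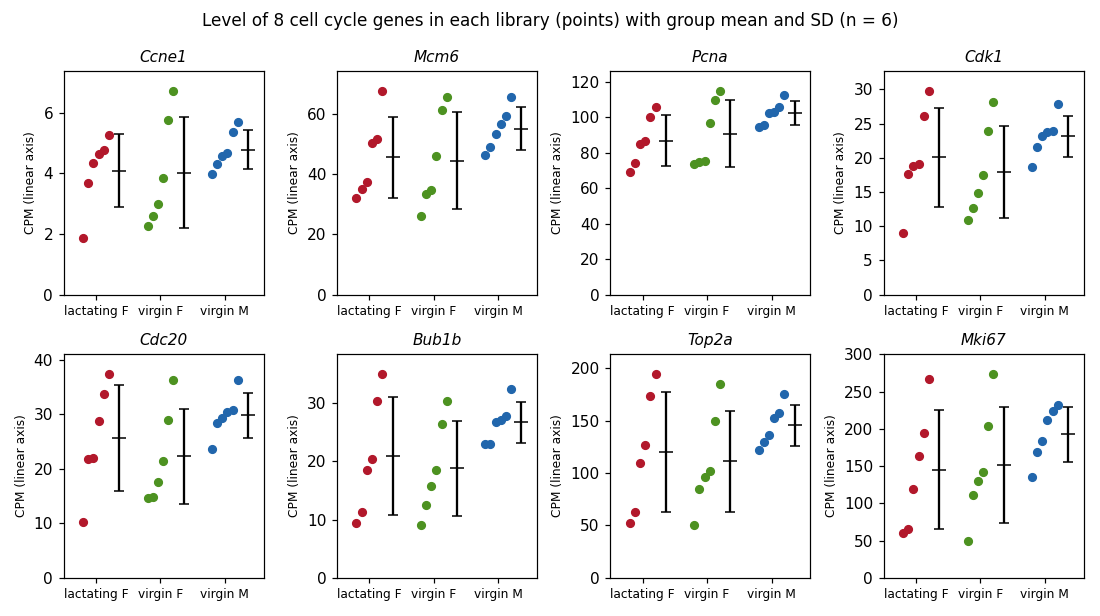
Points are the CPM (vertical, linear axis from 0) of 8 genes in each of the 6 libraries of a group, sorted by value, and the black bars are the group mean and SD. In all 8 panels the 3 groups overlap, with the male points packed together (Mki67 135 to 232 CPM) inside a wider female range (49.3 to 273 CPM).

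**Figure D3:**
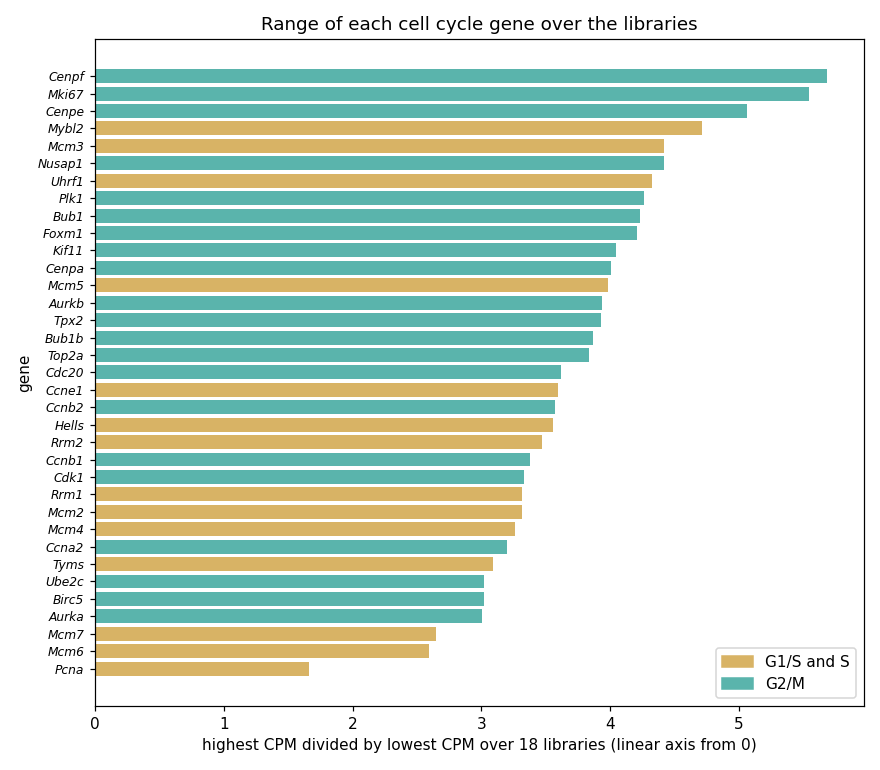
Bars give the highest CPM divided by the lowest CPM over the 18 libraries for each gene, on a linear axis from 0, coloured by phase. Pcna (1.67-fold) is shortest, and Cenpf (5.68-fold) and Mki67 (5.55-fold) are longest.

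Members moved together from library to library. After the group means were subtracted from log2 CPM, all 595 pairs of members had a positive Pearson's r over the 18 libraries, with a median of 0.94, and the median over all pairs of the genes tested was -0.0018. These values are a description, since all genes share the libraries. The lowest pair was Pcna and Cenpf (r = 0.54) and the highest Cenpf and Mki67 (r = 0.99). Pairs within the S-phase genes (median r = 0.95), within the G2/M genes (0.94) and across the phases (0.93) were nearly as close as each other. Beside the mean of the other 34 genes, members differed in how far they moved. A change of 1 log2 unit in the others went with 0.32 log2 units in Pcna, 0.71 in Birc5, 0.73 in Mcm6, 0.76 in Ccne1, 1.236 in Cenpf and 1.31 in Mki67, with medians of 0.97 over the S-phase and 1.08 over the G2/M genes. The mean log2 CPM of the G2/M genes minus that of the S-phase genes was 0.145 ± 0.163 for the lactating group, 0.134 ± 0.116 for virgin females and 0.175 ± 0.0509 for virgin males (SD, n = 6 each). It was lowest in lactating females 1 and 5 (-0.062 and -0.0103) and highest in lactating female 3 (0.35).

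Because the members moved together, their promoters were read for the letters that the E2F and MuvB families are known to use. RefSeq windows of build GRCm38.p6 were found for 30 members, and the 250 bases before each annotated start were searched on both strands. The E2F-type letters were TTTCCCGC, TTTCGCGC, TTTGCCGC and TTTGGCGC, the CHR-type letters (cell cycle genes homology region) were TTTGAA, and CCAAT is the box bound by NF-Y. Mcm7 and Uhrf1 have 2 windows each, which gives 15 windows of S-phase and 17 of G2/M members. E2F-type letters occurred in 5 of the 15 S-phase windows (Mcm5, Mcm6, Mcm7, Hells and Uhrf1), in 1 of the 17 G2/M windows (Cdk1), and in 3.18% of the windows of all genes tested. CHR-type letters occurred in 1 of 15 (Mcm2), in 7 of 17 (Mki67, Top2a, Kif11, Ube2c, Cdc20, Ccnb2 and Cdk1), and in 10.9% of the windows of all genes tested. CCAAT occurred in 11 of 15 and 15 of 17, and in 35.5% of the windows of all genes tested. A match describes letters only, and no match says only that these letters are not in this window. The windows printed are, for each kind of letters, the most highly expressed members that hold them and whose window overlaps no annotated exon, which left out the Mcm7 window. Capitals mark every E2F-type, CHR-type and CCAAT match on either strand, and each window runs 5′ to 3′ on the gene's strand up to the base before the start.
Mcm6, chr1:128359706-128359955, minus strand, E2F-type letters first at 110, 106 and 47 bases before the start, the first 2 overlapping: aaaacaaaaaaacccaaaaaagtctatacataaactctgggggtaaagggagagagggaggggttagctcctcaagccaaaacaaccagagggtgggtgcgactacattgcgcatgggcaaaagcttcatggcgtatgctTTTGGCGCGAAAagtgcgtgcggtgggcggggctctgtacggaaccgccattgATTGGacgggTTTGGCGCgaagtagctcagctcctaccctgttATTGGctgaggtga
Mcm5, chr8:75109259-75109508, plus strand, E2F-type letters at 153 and 149 bases before the start, overlapping: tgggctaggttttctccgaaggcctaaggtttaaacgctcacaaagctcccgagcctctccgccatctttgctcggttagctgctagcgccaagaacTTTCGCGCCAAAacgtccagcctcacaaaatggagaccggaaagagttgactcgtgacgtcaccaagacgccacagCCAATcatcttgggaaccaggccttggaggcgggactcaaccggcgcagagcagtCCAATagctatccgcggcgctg
Mki67, chr7:135716380-135716629, minus strand, CHR-type letters at 116 and 98 bases before the start: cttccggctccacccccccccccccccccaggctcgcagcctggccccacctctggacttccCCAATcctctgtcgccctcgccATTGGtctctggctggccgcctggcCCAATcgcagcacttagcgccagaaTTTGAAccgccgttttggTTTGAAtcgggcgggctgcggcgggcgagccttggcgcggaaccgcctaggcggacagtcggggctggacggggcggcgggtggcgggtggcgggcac
Top2a, chr11:99024190-99024439, minus strand, CHR-type letters at 179 and 23 bases before the start: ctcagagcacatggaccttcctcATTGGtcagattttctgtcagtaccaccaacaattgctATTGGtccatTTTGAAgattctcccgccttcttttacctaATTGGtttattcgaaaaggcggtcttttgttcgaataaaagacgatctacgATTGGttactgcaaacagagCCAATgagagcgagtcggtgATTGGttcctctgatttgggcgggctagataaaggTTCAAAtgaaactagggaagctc
The 2 S-phase windows were chosen for E2F-type letters and carry no CHR-type letters. The 2 G2/M windows were chosen for CHR-type letters and carry no E2F-type letters. All 4 carry CCAAT. Among the windows not printed, that of Cdk1 holds both kinds.

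Libraries with high Mki67 tended to have high levels of the crypt stem cell genes examined. The other members were not tested in this way. Mki67 was set against 7 other genes, chosen as marks of cell types or RNA quality, over the 18 libraries on the log2 CPM scale. Benjamini-Hochberg adjustment of the p-values ran across the 7. The members and marker lists were chosen with earlier results of these data known, so the permutation p-values are no independent evidence. Libraries were shuffled across the groups. With Olfm4, a secreted protein of crypt stem cells, Pearson's r was 0.92 (adjusted p = 7e-05 from a permutation p = 1e-05, which is as low as 100000 resamples can reach) and Spearman's rho 0.89 (permutation p = 1e-05, adjusted p = 7e-05). Without the 2 libraries farthest from the Olfm4 median r was 0.85. With Lgr5, the receptor that marks crypt stem cells, r was 0.89 (permutation p = 2e-05, adjusted p = 7e-05), rho 0.83 (permutation p = 1e-04, adjusted p = 0.00035), and r was 0.79 without the 2 farthest libraries. Within groups r with Olfm4 was 0.94 (lactating), 0.92 (virgin female) and 0.63 (virgin male), and r with Lgr5 was 0.92, 0.96 and 0.62. With Lyz1, a Paneth cell lysozyme, r was 0.69 (permutation p = 0.00125, adjusted p = 0.00175) and rho 0.62 (permutation p = 0.00763, adjusted p = 0.0107). Without the 2 farthest libraries r was 0.51, and within virgin males it was 0.12.

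Genes of differentiated villus cells ran the other way. With Alpi, the brush border alkaline phosphatase, r was -0.77 (permutation p = 0.00014, adjusted p = 0.000327), rho -0.80 (permutation p = 0.00018, adjusted p = 0.00042), and r was -0.71 without the 2 farthest libraries. With Ada, adenosine deaminase of the villus tip, r was -0.71 (permutation p = 0.0011, adjusted p = 0.00175), rho -0.73 (permutation p = 0.00086, adjusted p = 0.00151) and r -0.67 without the 2 farthest. The within-group r with Ada was -0.94 (lactating), -0.83 (virgin female) and -0.45 (virgin male). Pearson's r with Gm42418 cannot be pooled because virgin female 2 and virgin male 6 form a cluster of their own. Over the other 16 libraries r was -0.63. Spearman's rho over all 18 was -0.52 (permutation p = 0.0292, adjusted p = 0.0304). Within groups r was -0.76 (lactating), -0.13 (virgin female) and 0.33 (virgin male), the virgin groups including those libraries. The relation with Cd3e, a T cell receptor subunit, rests on levels of at most 0.26 CPM and was not read.

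**Figure D4:**
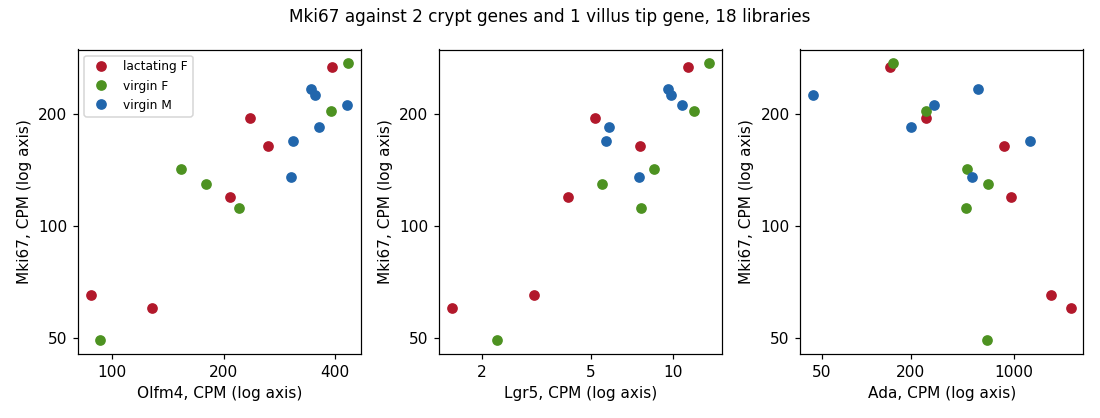
Mki67 (vertical) is plotted against Olfm4, Lgr5 and Ada (horizontal) in CPM on log axes, 1 point per library coloured by group. Points rise with Olfm4 (r = 0.92) and Lgr5 (r = 0.89) and fall with Ada (r = -0.71), and all 3 groups have libraries among those with high Mki67 and high Olfm4.

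Lactating and virgin females were compared to ask whether the ileal epithelium of mothers expresses more of the genes of cell division. No member passed the test: 0 of 35 had an adjusted p under 0.05 in edgeR's quasi-likelihood test, where 0.0578% of all genes tested did (9 of 15572), and 0 of 35 had an unadjusted p under 0.05, where 6.44% of all genes did. DESeq2 and limma voom also called 0 of 35. The median log2 fold change of the members was 0.09, beside -0.0026 over all genes tested, with 27 of 35 members above 0. Rrm2 had the smallest p (14.5 ± 5.73 CPM in the lactating and 12.3 ± 5.14 CPM in the virgin group, n = 6 and SD throughout, a log2 difference of 0.23 with SE 0.26, edgeR adjusted p = 0.943), followed by Mybl2 (0.24, SE 0.28) and Ccnb1 (0.23, SE 0.27). Mcm2 had the lowest value (-0.08, SE 0.26), and Mki67 stood at 145 ± 80.1 CPM in lactating and 151 ± 77.7 CPM in virgin females (-0.06, SE 0.36). For every member, 2 to 4 of the 6 lactating libraries exceeded the virgin mean.

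These data leave room for changes in either direction. The 95% intervals of all 35 members held 0, and their outer bounds were a fold of 0.567 for Mki67 and of 1.78 for Mybl2. For Pcna, the most precise member, the interval ran from 0.793 to 1.15. The direction of the members' median depended on single libraries: it was -0.09 without lactating female 2, -0.0074 without lactating female 3, -0.04 without virgin female 1, 0.0049 without virgin female 2 and virgin male 6, 0.24 without lactating female 1 and 0.27 without virgin female 4. In the same comparison the 14 stem cell markers had a median of -0.22 with 2 above 0, the 7 markers of absorptive enterocytes 0.01, and the 5 villus tip markers 1.25. The part of the crypt and villus content of the libraries in the members' values was not tested.

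Virgin males were compared with virgin females to ask whether the sexes differ outside reproduction. All 35 members were higher on average in males, and again none passed: 0 of 35 were called by edgeR's quasi-likelihood test (0.0835% of all genes, 13 of 15572), and 0 of 35 had an unadjusted p under 0.05 (8.32% of all genes). DESeq2 called 0 of 35, and limma voom called 0 but gave 24 an unadjusted p under 0.05, where 18.2% of all genes had one in that fit. The median log2 fold change was 0.36, beside -0.013 over all genes tested, of which 48.0% were above 0. The members share their libraries and move together, so 35 values above 0 do not count as 35 separate observations. All 6 male libraries lay above the virgin female mean for 29 members and 5 of 6 for the other 6 members. The share of all genes tested with such counts is not given here, so these counts were not read as a result about the members. The groups overlapped for all 35, as they did for nearly every gene (0.43% of all genes tested did not overlap).

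Bub1b had the smallest p and the largest difference, at 26.7 ± 3.48 CPM for males and 18.8 ± 8.21 CPM for females (SD, n = 6; a log2 difference of 0.51 with SE 0.30, edgeR adjusted p = 0.571). Birc5 stood at 23.3 ± 2.31 against 18.1 ± 5.39 CPM (0.36, SE 0.22, edgeR adjusted p = 0.571) and Cdc20 at 29.8 ± 4.05 against 22.3 ± 8.71 CPM (0.41, SE 0.26, edgeR adjusted p = 0.572). The other large differences were in Uhrf1 (0.47, SE 0.30) and Foxm1 (0.46, SE 0.33). The smallest was in Pcna (102 ± 6.71 against 90.8 ± 18.8 CPM, 0.17, SE 0.13). The median was nearly the same in the S-phase genes (0.35) and the G2/M genes (0.36). The intervals of all 35 members held 0, and their outer bounds were a fold of 0.753 for Mki67 and of 2.21 for Foxm1.

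Beside this, the 14 stem cell markers had a median log2 fold change of 0.29 with 12 above 0. The 7 absorptive enterocyte markers had a median of -0.66 with 0 above 0. Medians were near 0 for the 5 villus tip markers (-0.07, 2 above 0) and the 7 Paneth cell markers (-0.02, 3 above 0). None of these markers was called. The summed stem cell markers stood at 719 to 1046 CPM in males and 344 to 1093 CPM in virgin females, and the summed enterocyte markers at 13323 to 28092 and 18748 to 61680 CPM. Their part in the members' values was not tested. Without virgin female 2 and virgin male 6 the members' median was 0.28, without virgin female 1 it was 0.24 and without virgin female 4 it was 0.55, each time with all 35 members above 0. In the fit without virgin female 4, 13 members had an unadjusted p under 0.05, where 17.3% of all genes did, and 0 were called.

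Lactating females and virgin males differ in sex and in reproductive state, and may differ in diet. These cannot be told apart here, and both groups share libraries with the comparisons above. Members were lower on average in lactating females in 35 of 35 cases, with a median log2 fold change of -0.28 beside -0.0084 over all genes tested. None was called, where 0.764% of all genes were (119 of 15572), and 0 of 35 had an unadjusted p under 0.05 in edgeR's quasi-likelihood test, where 15.9% of all genes did. DESeq2 called 0 of 35 as well. Pcna had the smallest p (86.7 ± 14.3 against 102 ± 6.71 CPM, SD over 6 libraries, a log2 difference of -0.24 with SE 0.13, edgeR adjusted p = 0.364), followed by Mcm4 (-0.40, SE 0.27, edgeR adjusted p = 0.455) and Foxm1 (-0.47, SE 0.33, edgeR adjusted p = 0.464), and Mki67 stood at 145 ± 80.1 against 193 ± 37.3 CPM (-0.41, SE 0.36). Lactating libraries above the male mean numbered 1 of 6 for 9 members and 2 of 6 for 26, again without a share over all genes tested. The intervals held 0 for all 35, with outer bounds of a fold of 0.446 for Mki67 and of 1.40 for Bub1. Stem cell markers had a median of -0.50, absorptive enterocyte markers of 0.69 and villus tip markers of 1.35 in the same comparison, and their part was not tested. Without lactating female 1 the members' median was -0.14, and without lactating female 2 it was -0.47.

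**Figure D5:**
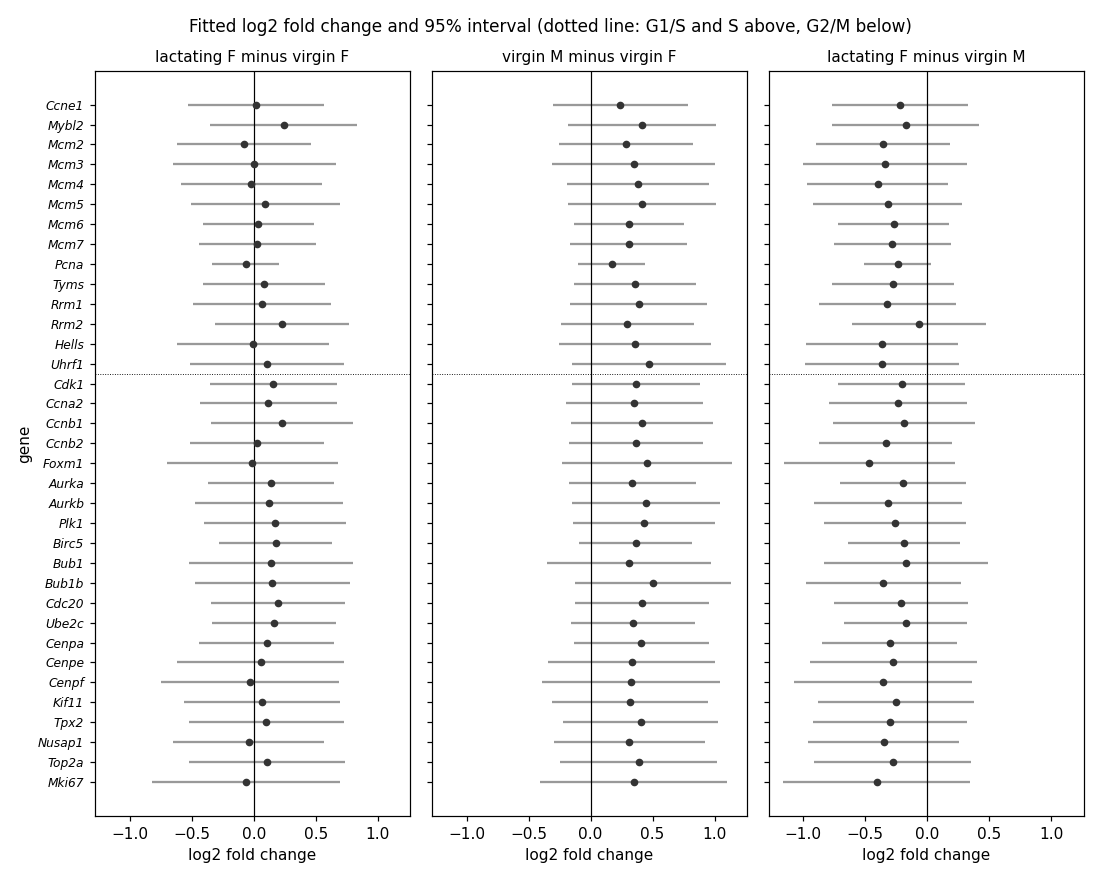
Points are fitted log2 fold changes and bars their 95% intervals for the 35 genes (rows) in the 3 comparisons (panels), with 0 as the vertical line. All bars cross 0. The points scatter around 0 for lactating against virgin females (median 0.09), and all lie above 0 for virgin males against virgin females and below 0 for lactating females against virgin males.

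Of 144 further cell cycle genes in 9 lists, 0 were called in any of the 3 comparisons by edgeR's quasi-likelihood test, and all 144 were tested. Their median log2 fold change was 0.03 for lactating against virgin females, 0.29 for virgin males against virgin females and -0.23 for lactating females against virgin males. At an unadjusted p under 0.05 there were 3, 5 and 11 of them, beside 6.44%, 8.32% and 15.9% of all genes tested. In the comparison of males with virgin females the kinetochore and checkpoint list (15 of 15 above 0, median 0.37), the spindle and cytokinesis list (19 of 19, median 0.36) and the polymerase, fork and nucleotide list (24 of 25, median 0.32) lay where the members did. The smallest p-values there were those of Ccnd2, cyclin D2, at 0.49 (SE 0.19, edgeR adjusted p = 0.565), of Rfc4, a clamp loader subunit, at 0.56 (SE 0.22) and of Tk1, thymidine kinase, at 0.52 (SE 0.23). The anaphase-promoting complex list (10 of 17 above 0, median 0.06) and the E2F and MuvB transcription factor list (8 of 14, median 0.10) were nearer to 0.

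The 10 genes for cyclin-dependent kinase inhibitors and pocket proteins, which hold cells out of the cycle, had no common direction. In males against virgin females 3 of 10 were above 0 (median -0.08), from -0.33 for Cdkn1c to 0.41 for Cdkn2a (SE 0.41, edgeR adjusted p = 0.690). In lactating females against virgin males 5 of 10 were above 0 (median -0.0294), from -0.76 for Cdkn2a to 0.93 for Cdkn1c. Cdkn1c, the inhibitor p57, came nearest to a call of all 144 genes. It stood at 2.11 to 4.78 CPM in lactating females (median 3.34), 1.57 to 2.77 in virgin females (median 2.35) and 1.39 to 2.24 in virgin males (median 1.83). All 6 lactating libraries lay above the male mean, but the groups overlapped. Its log2 fold change was 0.93 for lactating females against virgin males (SE 0.22, edgeR adjusted p = 0.0551) and 0.60 against virgin females (SE 0.22, edgeR adjusted p = 0.595). Cdkn1a, the inhibitor p21 of cells leaving the cycle, was at 0.37 for lactating females against virgin males (SE 0.18, edgeR adjusted p = 0.311) and at -0.27 for virgin males against virgin females (SE 0.18, edgeR adjusted p = 0.573).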

How the data were processed

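The authors deposited 1 table per library of raw counts of reads per Ensembl gene. FastQC 0.11.5, HISAT2 2.0.4, featureCounts (Subread 2.0.0), DESeq2 1.24.0 and build GRCm38 are named in the submitters' processing notes. Annotation release, strand setting and handling of multi-mapping reads are not given in the sources used here. Symbols, exon lengths and overlaps came from GENCODE M21, in which 47310 of 47729 identifiers were found. 0 rows named no gene.

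In R 4.3.3, edgeR 4.0.16 kept 15572 genes (filterByExpr) and scaled libraries by TMM. Its quasi-likelihood test used 1 coefficient per group and all 18 libraries. The code was run on simulated counts drawn independently for each gene. These had no variation shared between genes and no outlying libraries, so that run does not cover such features of the data. Benjamini-Hochberg adjustment ran over every gene kept, with a call at an adjusted p under 0.05. The SE was taken as the absolute log2 fold change over the root of F, and 95% intervals use the t distribution on the fit's degrees of freedom. Log2 CPM used a prior count of 2. Close copies were found with BLAST (at least 95% identity over 200 bases). Intervals are for the fitted difference between groups, with its error estimated from the spread between libraries.

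The members, the further cell cycle lists and the marker lists were chosen with earlier results of these data known. All members could be named, and 17 representatives of the roles, with the 3 of smallest p and the 3 of largest fold per comparison, were given values. Further cell cycle genes were named by smallest p, with Cdkn2a, and Cdkn1a in a second comparison, named after their values were seen. Alternatives were RLE size factors, no filter, DESeq2 1.42.0, voom with sample weights (limma 3.58.1), a replicate block, the 2 groups alone, each library left out, and virgin female 2 with virgin male 6 left out. Scaling to library totals was added after the data were seen.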

Additional observations from a re-analysis of the deposited data

How the results depend on the processing

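Of the fits tried, none called a cell cycle member in any comparison, and the lowest adjusted p of a member was 0.158 (limma voom, lactating females against virgin males). The members' median log2 fold change stayed above 0 for virgin males against virgin females (0.24 to 0.55 without single libraries) and below 0 for lactating females against virgin males (-0.47 to -0.14), and it ran from -0.089 to 0.27 for lactating against virgin females. With scaling to library totals, chosen after seeing the data, the median of all genes moved to 0.15 for virgin males against virgin females and to -0.19 for lactating females against virgin males, and the members' medians were 0.48 and -0.42. The number of genes called for lactating against virgin females was 69 with DESeq2, 2 with voom, 1 with the replicate block, 1 with only those 2 groups fitted, 1 when virgin female 2 and virgin male 6 were both dropped, and 2 to 16 when single libraries were left out. For virgin males against virgin females it was 20 without the filter, 30 with DESeq2 and 20 with voom, and 10 to 18 with libraries left out. For lactating females against virgin males it was 410 with DESeq2, 217 with voom, 71 with library totals and 61 without virgin female 2 and virgin male 6, and 62 to 311 with libraries left out. Same-numbered libraries had correlations of deviations from -0.2193 to 0.4773 over 18 pairs and 4 matched best with their own number, so the replicate numbers were not taken as pairs. The replicate block called 11 and 114 genes in the other comparisons.

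The direction of single members in lactating against virgin females depended on the fit, and the cause was not tested. With voom the log2 fold change turned for Mcm2 (0.0275), Mcm4 (0.0459), Hells (0.15), Foxm1 (0.13), Cenpf (0.0828), Nusap1 (0.0245), Mki67 (0.0799). With the replicate block the log2 fold change turned for Mcm4 (0.00938), Hells (0.00946). Without the filter the log2 fold change turned for Mcm3 (-0.00284). With library totals the log2 fold change turned for Ccne1 (-0.0242), Mcm3 (-0.0106). Without virgin female 2 and virgin male 6 the log2 fold change turned for Ccne1 (-0.10), Mcm3 (-0.0948), Mcm6 (-0.0254), Mcm7 (-0.0408), Rrm1 (-0.00515), Ccnb2 (-0.0752), Cenpe (-0.00440). With libraries left out it ranged from -0.10 to 0.22 for Ccne1, -0.27 to 0.0699 for Mcm2, -0.22 to 0.20 for Mcm3, -0.20 to 0.14 for Mcm4, -0.11 to 0.28 for Mcm5, -0.11 to 0.18 for Mcm6, -0.15 to 0.15 for Mcm7, -0.13 to 0.0120 for Pcna, -0.0810 to 0.22 for Tyms, -0.11 to 0.23 for Rrm1, -0.20 to 0.19 for Hells, -0.15 to 0.29 for Uhrf1, -0.0515 to 0.30 for Ccna2, -0.0984 to 0.21 for Ccnb2, -0.25 to 0.21 for Foxm1, -0.00229 to 0.28 for Aurka, -0.0704 to 0.34 for Aurkb, -0.0587 to 0.38 for Bub1, -0.0601 to 0.34 for Bub1b, -0.0631 to 0.28 for Cenpa, -0.15 to 0.27 for Cenpe, -0.30 to 0.22 for Cenpf, -0.17 to 0.30 for Kif11, -0.0887 to 0.32 for Tpx2, -0.25 to 0.17 for Nusap1, -0.0856 to 0.31 for Top2a, -0.33 to 0.19 for Mki67. For lactating females against virgin males it ranged from -0.25 to 0.0592 for Rrm2.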
